A study of Mus musculus with 6 samples.

Results

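The 56 genes described here were more abundant in infant mice, at postnatal day 6 (P6), than in adult mice, at postnatal day 56 (P56), in a deposited table of 312 mouse genes. They were chosen by their values: the mean TPM at P6 was at least 1.3 times that at P56, each of the 3 P6 values lay above each of the 3 P56 values, and the mean over the 6 libraries was at least 10 counts. TPM is the share of a transcript among all transcripts of a library, corrected for its length. Of the 312 genes, 70 met these conditions, and 14 of them were set aside because they belong to 18 collagen, contractile and other genes excluded by name. The difference between the ages is therefore the choice itself, and neither the direction of a member nor its call in a test of the ages is a finding.

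The paper concerned the transcription factor LHX8 in heat production by fat cells, and its mouse sequencing included fat of an infant and an adult age. RNA was sequenced from wild-type mice, with no treatment named in the labels, at P6, the infant age, and at P56, the adult age, in 3 libraries per age. The material was the iAT, the inguinal fat depot, of the inbred C57BL/6 strain by the paper's account, and adipose tissue macrophages (ATMs) by the sample labels. None of the 17 macrophage markers and none of the 9 adipocyte markers looked for was among the 312 genes, so the labelled cell type could not be checked. The study used male and female mice, and no source used here gives the sex of each library, whether animals were pooled, or how the 312 genes were selected. Their list is labelled DEGs, for differentially expressed genes, so shares over it are no neutral background. The labels number the libraries without saying that each came from a separate animal, so the spread between them may be technical. In bulk RNA of this kind, more cells of a type and more RNA per cell cannot be told apart.

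Fat depots of newborn mice are still being built. Precursor cells divide and mature into adipocytes, blood vessels grow into the depot, and fibroblasts and perivascular cells lay down and remodel the extracellular matrix around them. Signals of the Wnt, activin, insulin-like growth factor and Hippo pathways are known to steer whether such precursors divide or mature. Cell division needs DNA polymerases, spindle proteins and the actin ring that separates the daughter cells, and these transcripts are commonly scarce in resting adult tissue.

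Over the listed genes, the libraries held between 497044 and 816309 estimated counts, which is 2.30% to 2.69% of the TPM of a library. The depth of the whole library, taken from how many counts a unit of FPKM (fragments scaled by length and library total) was worth, was 1.13, 1.09 and 1.16 times the mean of the 6 libraries at P6 and 0.937, 0.888 and 0.795 times at P56. P56 replicate 3 had the least depth and stood apart from the other P56 libraries: over all listed genes it differed from replicates 1 and 2 by a median chi-square of 10.4 and 5.12 per gene, while those differed from each other by 2.23. Among the 56 genes, whose choice favoured a small spread, the medians were 3.18, 1.96 and 1.81 for the same pairs. For some members the ratio is also given without it. It was the lowest P56 library for 45 of the 56 genes, so the ratios of others may rest on it as well.

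Promoter sequences were at hand for 37 of the 56 genes, from 250 bases before to 50 bases after the start of transcription (RefSeq, GRCm38.p6). The promoters of 4 genes are printed because their levels recur in the results: *Aspm*, *Anln* and *Brca2*, which serve cell division, and *Inhba*, which encodes a secreted signal. Each is written on the strand of its gene, with capitals for matches to the CCAAT box (CCAAT, or ATTGG on the other strand), the GC box (GGGCGG, or CCGCCC), the TATA box (TATAAA) and the cAMP response element (TGACGTCA). Positions count from the start of transcription, and the printed matches do not overlap one another.
*Aspm*, chr1:139454523-139454822, plus strand: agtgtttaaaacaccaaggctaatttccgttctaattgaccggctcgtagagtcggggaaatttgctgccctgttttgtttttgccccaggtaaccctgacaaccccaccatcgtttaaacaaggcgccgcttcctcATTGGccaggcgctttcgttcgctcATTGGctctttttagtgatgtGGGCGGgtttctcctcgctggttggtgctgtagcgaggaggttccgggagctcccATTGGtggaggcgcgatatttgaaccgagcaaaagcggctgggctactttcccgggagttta
*Anln*, chr9:22389157-22389456, minus strand: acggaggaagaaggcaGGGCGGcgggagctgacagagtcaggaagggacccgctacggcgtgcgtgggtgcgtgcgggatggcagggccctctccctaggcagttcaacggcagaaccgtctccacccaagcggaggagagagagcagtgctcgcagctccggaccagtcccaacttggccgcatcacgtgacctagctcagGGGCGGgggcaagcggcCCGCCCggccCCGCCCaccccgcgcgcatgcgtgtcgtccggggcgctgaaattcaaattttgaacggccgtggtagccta
*Brca2*, chr5:150522371-150522670, plus strand: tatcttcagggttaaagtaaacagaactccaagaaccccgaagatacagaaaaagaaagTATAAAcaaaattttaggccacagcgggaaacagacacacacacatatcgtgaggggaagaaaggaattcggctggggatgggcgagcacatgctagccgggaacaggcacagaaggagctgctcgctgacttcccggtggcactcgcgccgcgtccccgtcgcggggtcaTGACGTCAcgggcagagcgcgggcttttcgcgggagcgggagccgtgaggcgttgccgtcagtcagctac
*Inhba*, chr13:16011601-16011900, plus strand: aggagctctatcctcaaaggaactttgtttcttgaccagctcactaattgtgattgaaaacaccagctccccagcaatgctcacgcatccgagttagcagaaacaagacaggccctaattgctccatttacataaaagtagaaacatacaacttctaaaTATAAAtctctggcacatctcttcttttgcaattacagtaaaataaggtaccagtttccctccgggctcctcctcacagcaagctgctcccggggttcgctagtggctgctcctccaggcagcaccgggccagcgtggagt

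The 4 promoters were built differently. That of *Aspm* held 3 CCAAT boxes on the other strand, at −113, −88 and −12, and a GC box at −67. *Anln* had 4 GC boxes, at −234, −48, −31 and −21, and no TATA box. In *Brca2* a TATA box match lay at −191, far from the start, and a cAMP response element at −20, while *Inhba* had a TATA box match alone, at −91. Shares are of genes with a promoter sequence, and a gene counted if any of its promoters matched. Of the 37 members, 10 held TATAAA on either strand (27%), against 15.1% of the 245 listed genes with a promoter and 15.7% of 27025 mouse genes. The 10 genes were *Inhba*, *Lef1*, *Mef2c*, *Arid5b*, *Gadd45b*, *Brca2*, *Tnc*, *Avpr1a*, *Slc7a1* and *Gm40814*. CCAAT stood in 51.4% of these members, 41.2% of the listed genes and 41.1% of all genes. GGGCGG was found in 62.2%, 73.1% and 38.2% of them, so the listed genes as a whole held it more often than mouse genes at large. The AP-1 motif TGANTCA was present in 8.11% of the members, 5.31% of the listed genes and 8.97% of all, and the TEAD motif GGAATG in 16.2%, 20% and 16.6%. No member held the E2F motif TTTGGCGC or the palindromic NRF1 motif, which 1.22% of the listed genes held in each case, and 0.585% and 1.07% of all genes. The ETS motif CCGGAAGT stood in 1 member (2.7%), 2.45% of the listed genes and 4.31% of all, and TGACGTCA in 2 members (5.41%), 4.49% of the listed genes and 2.03% of all. A match says only that these letters occur in the window.

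Taken as a whole, the 56 genes summed to 3519, 3489 and 3296 TPM in the P6 libraries and to 1934, 1795 and 1620 TPM in the P56 libraries. The median ratio of the mean TPM at P6 to that at P56 (called the ratio from here on) was 1.75, against 0.901 over the 310 listed genes with at least 10 counts. The ratio was at least 4 in 8 genes, at least 3 in 12 and at least 2 in 19, lay from 1.5 to under 2 in 20 and under 1.5 in 17. Most members were of moderate abundance: 40 had between 5 and 100 TPM at P6, 10 had less than 5 and 6 had 100 or more, with a range from 1.32 to 794 TPM. In edgeR's quasi-likelihood test all 56 members passed an adjusted *p* under 0.05 as higher at P6, where 30.3% of the 310 tested genes did so and 33.9% passed as lower. All P6 TPM lay above all P56 TPM in 27.1% of the tested genes, a condition that the 56 met by choice, so nothing is read from either count. With equal library sizes the split over all tested genes was 148 higher and 34 lower in place of 94 and 105, and the middle of all log2 fold changes, which are given as P6 over P56, was 0.34 in place of −0.03. The members' log2 fold changes at the recovered depth ran from 0.47 to 2.84, with a median of 0.94.

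**Figure D1:**
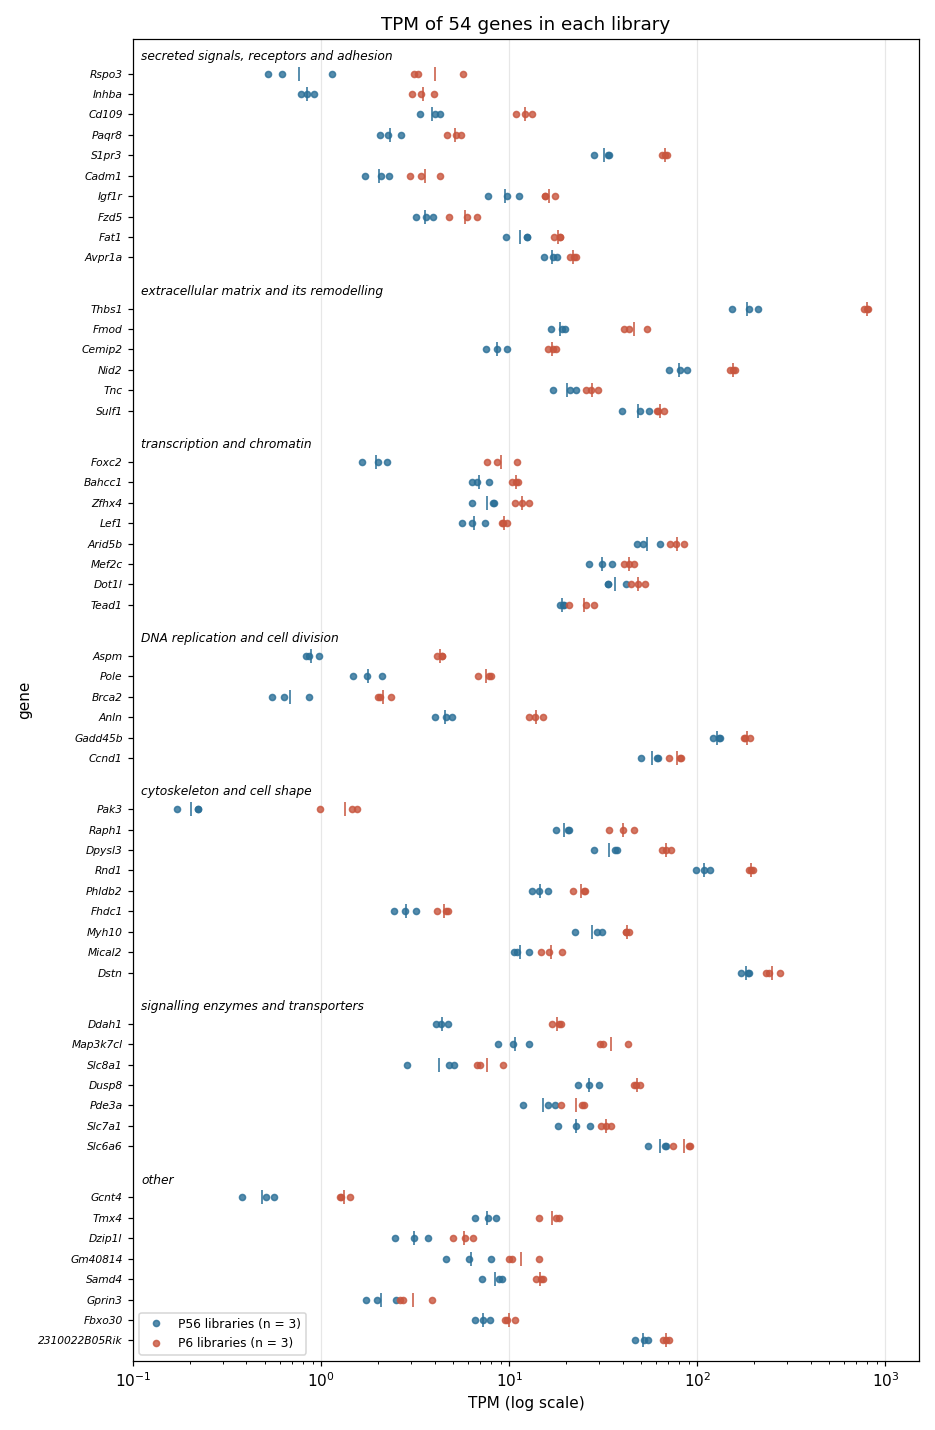
TPM of 54 of the 56 genes in each library on a log axis, one line per gene, grouped by the role of the protein and ordered by the ratio within a role. Points are libraries (3 per age) and the short bars are the means of an age; the levels span from under 1 TPM for *Pak3* at P56 to 794 TPM for *Thbs1* at P6, and no P6 point lies below a P56 point of the same gene, as the choice of genes required.

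The secreted signals among the members were scarce at both ages. *Rspo3* (gene ID 72780) encodes an R-spondin, a secreted protein that strengthens Wnt signalling, and had 5.69, 3.28 and 3.12 TPM at P6 and 0.62, 1.14 and 0.52 TPM at P56. P6 replicate 1 lay well above the other P6 libraries and P56 replicate 2 above the other P56 libraries, so that *Rspo3* had the widest relative spread of the 56 genes at both ages, with a coefficient of variation (CV) of 35.7% at P6 and 43.8% at P56. *Inhba* (gene ID 16323) encodes the chain that forms activin A, a ligand of the transforming growth factor β family. It had 3.96, 3.37 and 3.04 TPM at P6 and 0.78, 0.91 and 0.84 TPM at P56, and its ratio was 4.10. The P6 libraries all exceeded 3 TPM and the P56 libraries all stayed under 1 TPM. The counts behind these levels were few. *Rspo3* had 236 counts over the P6 libraries and 32 over the P56 libraries, a ratio of 5.72 at equal depth with a 95% exact interval from 3.94 to 8.55, and *Inhba* had 197 and 46 counts, a ratio of 3.32 with an interval from 2.40 to 4.68. These intervals cover counting error only.

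Of the receptors, *Igf1r* (gene ID 16001), which binds insulin-like growth factors and drives growth, had 15.56, 17.52 and 15.41 TPM at P6 and 11.21, 9.72 and 7.67 TPM at P56. Its ratio was 1.70, and 1.54 without P56 replicate 3, the lowest of the P56 values. *Fzd5* (gene ID 14367), a Frizzled receptor for Wnt ligands, had 6.72, 5.98 and 4.75 TPM at P6 and 3.91, 3.18 and 3.61 TPM at P56, and the gap between the lowest P6 and the highest P56 library was smaller than the spread within P6. *S1pr3*, a receptor for the lipid sphingosine 1-phosphate, was the most abundant gene of the group, at 67.0 ± 2.18 TPM (SD, n = 3) at P6 and 31.7 ± 3.17 TPM at P56. *Paqr8*, a membrane progesterone receptor, had 5.12 ± 0.442 and 2.32 ± 0.309 TPM. *Avpr1a*, a vasopressin receptor, lay close to the limit of the choice, with 21.9 ± 0.793 and 16.8 ± 1.37 TPM and a ratio of 1.3.

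At the cell surface, *Cd109* (gene ID 235505), a membrane-anchored protein that binds transforming growth factor β, had 13.13, 12.15 and 10.91 TPM at P6 and 4.02, 4.27 and 3.33 TPM at P56, a ratio of 3.11 with no approach between the ages. *Fat1* (gene ID 14107), a very large protocadherin, had 18.59, 18.63 and 17.29 TPM at P6 and 12.37, 12.35 and 9.63 TPM at P56. *Cadm1* (gene ID 54725), an adhesion molecule of the immunoglobulin superfamily, had 2.96, 4.28 and 3.41 TPM at P6 and 2.30, 1.70 and 2.07 TPM at P56. The ratios of *Fat1* and *Cadm1* were 1.59 and 1.75, and 1.47 and 1.775 without P56 replicate 3. *Cadm1* was the more scattered, with log2 fold changes of 0.79 (standard error 0.093) for *Fat1* and 0.93 (standard error 0.20) for *Cadm1*.

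The extracellular matrix genes held the most abundant transcripts. *Thbs1* (gene ID 21825) encodes thrombospondin, a matrix glycoprotein that binds cells, restrains the growth of vessels and activates latent transforming growth factor β. It had 797.8, 812.23 and 771.51 TPM at P6 and 211.39, 188.76 and 153.03 TPM at P56. The P6 libraries lay close together, P56 replicate 3 was the lowest of its age, and the ratio was 4.31, or 3.97 without that library.

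Other matrix genes differed less between the ages. *Fmod* (gene ID 14264), fibromodulin, a small proteoglycan that binds collagen fibrils, had 53.8, 43.1 and 40.87 TPM at P6 and 19.82, 18.99 and 16.76 TPM at P56, with a ratio of 2.48. *Nid2* (gene ID 18074), a nidogen that links laminin and collagen in basement membranes, had 159.28, 155.36 and 148.38 TPM at P6 and 88.16, 80.69 and 70.89 TPM at P56. *Tnc* (gene ID 21923), tenascin C, a glycoprotein of developing and healing tissue, had 27.19, 29.53 and 25.63 TPM at P6 and 22.68, 20.90 and 16.98 TPM at P56. The ages thus stood far apart for *Fmod* and *Nid2* and close for *Tnc*, whose ratio of 1.36 became 1.26 without P56 replicate 3. *Cemip2*, a cell surface protein that degrades hyaluronan, had 16.9 ± 0.898 and 8.57 ± 1.11 TPM (SD, n = 3 per age). *Sulf1*, an enzyme that trims sulfate from heparan sulfate chains, had 63.2 ± 2.70 and 48.3 ± 7.99 TPM, and its ratio of 1.31 fell to 1.2 without P56 replicate 3, the lowest of the 56 genes.

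Matrix genes of the table went both ways. Of 10 tested genes in the matrix list, 5 were called higher and 4 lower at P6 (edgeR), and 4 of the 5, *Thbs1*, *Fmod*, *Nid2* and *Tnc*, were members. The fifth, *Hspg2*, which encodes perlecan, had a log2 fold change of 0.42. The list does not hold 7 further matrix genes that were excluded by name, of which 6 were called higher and none lower. The 4 that were lower were *Col4a5* (log2 fold change −1.81), *Prelp* (−0.87), *Lamb2* (−0.82) and *Mgp* (−0.79), which encode a collagen of basement membranes, a leucine-rich repeat proteoglycan, a laminin chain and matrix Gla protein. *Col6a3* was not called. The list's median log2 fold change was 0.24, beside −0.03 over all tested genes.

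The genes of DNA replication and cell division included some of the widest gaps between the ages. *Pole* (gene ID 18973), the catalytic subunit of the leading-strand DNA polymerase, had 7.96, 7.84 and 6.82 TPM at P6 and 2.10, 1.48 and 1.75 TPM at P56, with a ratio of 4.24. *Aspm* (gene ID 12316), a protein of the mitotic spindle poles, had 4.38, 4.41 and 4.10 TPM at P6 and 0.86, 0.83 and 0.97 TPM at P56, with a ratio of 4.85. *Brca2* (gene ID 12190), which loads the recombinase onto broken DNA, had 2.35, 2.01 and 2.04 TPM at P6 and 0.86, 0.63 and 0.55 TPM at P56. For these 3 genes the lowest P6 library exceeded the highest P56 library 3.25-fold, 4.23-fold and 2.34-fold. *Anln* (gene ID 68743), anillin, the scaffold of the ring that divides the cell, had 15.04, 12.68 and 13.62 TPM at P6 and 4.62, 4.98 and 4.03 TPM at P56, and a ratio of 3.03. It was the most abundant of these 4 genes at both ages.

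The remaining genes of the group were abundant and moved less. *Ccnd1* (gene ID 12443), cyclin D1, which drives entry into the cell cycle in response to growth signals, had 82.07, 81.01 and 70.92 TPM at P6 and 62.05, 60.65 and 50.25 TPM at P56. *Gadd45b* (gene ID 17873), a stress-induced protein that can arrest the cycle, had 178.91, 190.84 and 178.07 TPM at P6 and 132.38, 120.43 and 131.01 TPM at P56. Their ratios were 1.35 and 1.43, and that of *Ccnd1* was 1.27 without P56 replicate 3, while *Gadd45b* did not depend on that library (1.44). Of 5 tested genes in the list of cell cycle and replication genes, 4 were called higher (*Ccnd1*, *Pole*, *Aspm*, *Brca2*) and none lower by edgeR. Over all tested genes 30.3% were called higher and 33.9% lower. The 4 are members, whose calls followed from their choice, so nothing is read from this count. *Atm*, a kinase that responds to DNA breaks, was not called, with a mean of 2.89 TPM at P6 and 3.44 TPM at P56. None of the 5 proliferation markers looked for (*Mki67*, *Top2a*, *Ccnb1*, *Cdk1* and *Birc5*) was among the 312 genes.

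All 5 tested genes of the list of sequence-specific transcription factors were members, so in this list no gene was lower or not called. Their calls followed from their choice, and over all tested genes 30.3% were called higher and 33.9% lower, so nothing is read from this count. DNA-binding factors placed in other lists went different ways. Among them *Arid5b* was a member, *Atf6* (log2 fold change −0.33) was called lower and *Prdm16* (−0.23) was not called. *Foxc2* (gene ID 14234), a forkhead factor active in mesenchyme, lymphatic vessels and fat, had 10.96, 7.64 and 8.61 TPM at P6 and 2.23, 2.0 and 1.64 TPM at P56. It stood apart from the other factors, with a ratio of 4.64 and a log2 fold change of 2.33 (standard error 0.19). *Lef1* (gene ID 16842), which carries Wnt signals to DNA together with β-catenin, had 9.26, 9.70 and 9.15 TPM at P6 and 7.45, 5.59 and 6.33 TPM at P56. *Zfhx4* (gene ID 80892), a large zinc finger homeobox protein, had 11.73, 12.74 and 10.67 TPM at P6 and 8.24, 8.20 and 6.35 TPM at P56. The ratios of *Lef1* and *Zfhx4* were 1.45 and 1.54, and 1.44 and 1.42 without P56 replicate 3.

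*Mef2c* (gene ID 17260), a factor of muscle and vascular development, had 46.08, 43.06 and 40.83 TPM at P6 and 35.37, 30.99 and 26.45 TPM at P56. Its ratio was 1.4, and 1.31 without P56 replicate 3. *Tead1* (gene ID 21676), the DNA-binding partner of the Hippo effectors YAP and TAZ, had 25.64, 28.14 and 20.66 TPM at P6 and 19.19, 19.46 and 18.53 TPM at P56. Its P56 libraries had the smallest CV at that age among the 56 genes, 2.51%, its P6 libraries scattered, and P6 replicate 3 came near the adult level. With a ratio of 1.302, *Tead1* was the member nearest to the limit of the choice.

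Among chromatin genes, *Arid5b* (gene ID 71371), a DNA-binding cofactor needed for the formation of fat in mice, had 77.01, 84.57 and 71.78 TPM at P6 and 63.26, 51.34 and 47.78 TPM at P56. *Dot1l* (gene ID 208266), a histone methyltransferase that marks transcribed genes, had 48.53, 52.49 and 44.35 TPM at P6 and 41.83, 33.49 and 33.62 TPM at P56. For *Dot1l* the P56 replicate 1 library came close to the P6 values, and the ratio was 1.33. *Bahcc1*, a chromatin protein with a BAH domain, had 10.8 ± 0.396 and 6.94 ± 0.737 TPM (SD, n = 3 per age). The list of chromatin genes and cofactors was divided: of 13 tested genes, 4 were called higher and 3 lower at P6 by edgeR. *Chd1* (log2 fold change 0.29) and *Hdac4* (0.45) were higher beside *Arid5b* and *Dot1l*, and the methyltransferases *Kmt2d* (−0.89), *Kmt2a* (−0.56) and *Ash1l* (−0.30) were lower.

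Genes of the cytoskeleton and of cell shape ran from scarce to abundant members. *Pak3* (gene ID 18481), a kinase activated by the small GTPases Rac and Cdc42, had 1.55, 0.99 and 1.46 TPM at P6 and 0.22, 0.22 and 0.17 TPM at P56, and its ratio of 6.56 was the largest of the 56. It rested on 289 counts over the P6 libraries and 31 over the P56 libraries, a ratio of 7.22 at equal depth with a 95% exact interval from 4.98 to 10.8. *Rnd1* (gene ID 223881), a small GTP-binding protein that loosens actin fibres, had 198.77, 192.4 and 187.38 TPM at P6 and 117.13, 108.78 and 97.97 TPM at P56. Its ratio was 1.79. *Dstn* (gene ID 56431), destrin, which disassembles actin filaments, had 274.81, 231.21 and 239.59 TPM at P6 and 170.38, 185.92 and 187.17 TPM at P56. Together with *Rnd1*, *Myh10* and *Gm40814* it was one of 4 members with fractional counts, which arise where reads are divided between related sequences, so their levels are less certain.

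*Dpysl3* (gene ID 22240), a protein of growth cones that binds actin and tubulin, had 67.94, 72.60 and 65.01 TPM at P6 and 37.40, 36.33 and 28.12 TPM at P56, with a ratio of 2.02. *Myh10* (gene ID 77579), a nonmuscle myosin heavy chain, had 43.56, 41.54 and 41.51 TPM at P6 and 31.18, 29.29 and 22.31 TPM at P56, with a ratio of 1.53. The ages of both genes lay apart in every library. *Raph1*, which extends the leading edge of moving cells, had 40.0 ± 6.01 and 19.6 ± 1.69 TPM (SD, n = 3 per age), *Phldb2*, which anchors microtubules at the cell edge, 24.0 ± 1.81 and 14.6 ± 1.4 TPM, *Mical2*, an enzyme that oxidises actin, 16.7 ± 2.19 and 11.4 ± 1.13 TPM, and *Fhdc1*, a formin, 4.50 ± 0.321 and 2.81 ± 0.381 TPM. Of 17 tested genes in the list of the actin and myosin cytoskeleton, 2 were called higher (*Myh10* and *Anln*), 3 lower (*Macf1*, *Utrn* and *Tpm2*) and 12 were not called by edgeR, with a median log2 fold change of 0.09. This list does not hold the contractile genes *Acta2*, *Tagln*, *Myl9* and *Cnn1*, which were excluded by name and all 4 called higher. The most abundant gene of the list, *Actg1*, had a mean of 3347 TPM at P6 and 3831 TPM at P56.

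**Figure D2:**
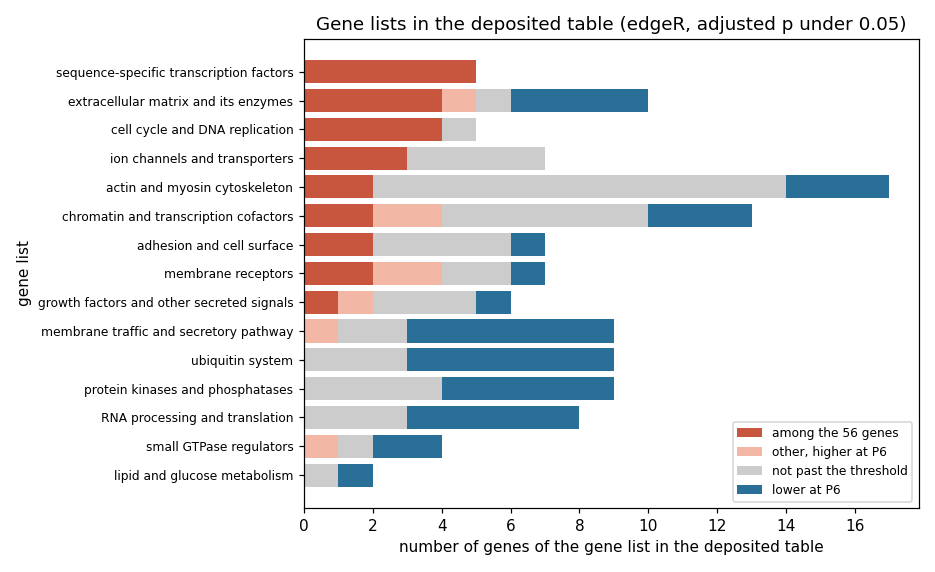
Number of tested genes per gene list that were called higher or lower at P6 by edgeR at an adjusted *p* under 0.05, or not called; dark red bars are genes among the 56. All 5 tested genes in the list of sequence-specific transcription factors and 4 of 5 in the cell cycle list were members, whose calls followed from their choice. Over all tested genes 30.3% were called higher and 33.9% lower. The lists of the ubiquitin system, RNA processing, and kinases and phosphatases held none. The members *Fbxo30*, *Samd4*, *Pak3* and *Dusp8* are of these kinds but stand in no list.

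Most markers of smooth muscle and pericytes among the listed genes were higher at P6 in the same libraries. Of the 10 markers of this list, 6 were in the table, and edgeR called *Acta2*, *Tagln*, *Cnn1*, *Myl9* and *Mcam* higher and did not call *Cspg4*. Their summed level was between 1316 and 1842 TPM at P6 and between 929 and 1092 TPM at P56, and none was at 0. The 5 that were higher are among the genes excluded by name, so none of the 56 was taken from this list. *Acta1* and *Neb*, of 10 skeletal muscle markers, were lower, with a summed level of 151 to 173 TPM at P6 and 542 to 562 TPM at P56. *Mef2c*, *S1pr3* and *Pde3a* are among the members that vascular muscle is known to express. Other genes known from smooth muscle did not follow: *Lmod1* (log2 fold change −0.23) and *Smtn* (0.16) were not called and *Tpm2* (−0.30) was called lower. What part these cells had in the levels of the members was not tested.

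Signalling enzymes and transporters included a further pair of members with ratios above 3. *Ddah1* (gene ID 69219), which degrades the methylated arginines that inhibit nitric oxide synthesis, had 18.88, 16.82 and 18.33 TPM at P6 and 4.35, 4.73 and 4.05 TPM at P56, a ratio of 4.12. *Map3k7cl* (gene ID 224419), named for its likeness to a kinase of the MAP kinase cascade, had 42.61, 31.39 and 30.17 TPM at P6 and 12.76, 8.71 and 10.50 TPM at P56, a ratio of 3.26. Replicate 1 was the highest library of *Map3k7cl* at both ages. *Dusp8*, a phosphatase that switches off MAP kinases, had 47.6 ± 1.58 and 26.5 ± 3.39 TPM (SD, n = 3 per age), and *Pde3a*, a phosphodiesterase that breaks down cAMP, 22.7 ± 3.45 and 15.1 ± 2.93 TPM. Neither is in the list of kinases and phosphatases, and the kinase *Pak3*, also a member, is not in it either. Of the 9 tested genes of that list none was called higher and 5 were called lower by edgeR.

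Each of the 3 transporters among the members carries a different cargo. *Slc6a6* (gene ID 21366), the taurine transporter, had 90.88, 90.20 and 74.00 TPM at P6 and 68.38, 67.23 and 54.82 TPM at P56. *Slc7a1* (gene ID 11987), which imports arginine and lysine, had 32.81, 34.59 and 30.55 TPM at P6 and 26.85, 22.74 and 18.18 TPM at P56. *Slc8a1* (gene ID 20541), the sodium-calcium exchanger, had 9.25, 6.96 and 6.73 TPM at P6 and 5.07, 4.75 and 2.84 TPM at P56. In all 3 genes P56 replicate 3 was the lowest library, and without it the ratios of 1.34, 1.45 and 1.81 became 1.25, 1.32 and 1.56. The other 4 tested genes of the list of ion channels and transporters, *Atp10a*, *Cacna1c* and *Trpv2* among them, were not called.

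The last 9 members share no role. *Tmx4* (gene ID 52837), a thioredoxin-related protein of the endoplasmic reticulum, had 18.32, 17.71 and 14.33 TPM at P6 and 7.66, 8.53 and 6.59 TPM at P56, a ratio of 2.21. *Gcnt4* (gene ID 218476), a glycosyltransferase of mucin-type sugars, had 1.27, 1.42 and 1.26 TPM at P6 and 0.51, 0.56 and 0.38 TPM at P56, and its ratio of 2.72 rested on 167 and 44 counts. Both genes differed between the ages by more than the libraries of an age. *Samd4*, an RNA-binding repressor of translation, had 14.6 ± 0.597 and 8.35 ± 1.06 TPM (SD, n = 3 per age), *Gm40814* 11.5 ± 2.41 and 6.22 ± 1.70 TPM, and *Dzip1l*, a protein of the ciliary base, 5.76 ± 0.689 and 3.09 ± 0.605 TPM. *Fbxo30*, an F-box protein of ubiquitin ligases, had 9.997 ± 0.676 and 7.23 ± 0.660 TPM, the uncharacterised *2310022B05Rik* 68.3 ± 2.38 and 51.2 ± 4.07 TPM, and *Gprin3* 3.06 ± 0.695 and 2.07 ± 0.404 TPM.

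The roles differed in how far their members lay apart. The median ratio was 3.09 over the 6 genes of DNA replication and cell division, 1.93 over the 10 secreted signals, receptors and adhesion molecules and 1.93 over the 7 matrix genes. It was 1.80 over the 7 signalling enzymes and transporters, 1.75 over the 9 genes without a shared role, 1.65 over the 9 cytoskeletal genes and 1.44 over the 8 genes of transcription and chromatin. Every role held at least 1 gene with a ratio under 1.5, and a role was assigned to each gene with its values known, so these medians are a description. Of the 16 gene lists, 9 held a member, 25 of the 56 genes stood in a list and 31 in none. The 8 genes tested for RNA processing and translation and the 9 of the ubiquitin system held no gene called higher, and 5 and 6 of them were called lower by edgeR. Those lists lack the members *Samd4*, an RNA-binding repressor, and *Fbxo30*, an F-box protein of ubiquitin ligases. Of 7 membrane receptors 4 were called higher, among them *Fzd7* (log2 fold change 0.43) and *Neo1* (0.34) beside *Igf1r* and *Fzd5*, and *Lifr* was lower (−0.70). In the list of secreted signals, *Bmp2* (0.46) was higher beside *Inhba*, *Csf1* (−0.65) was lower, and *Ctgf*, *Cyr61* and *Ltbp1* were not called. In the adhesion list *Fat1* and *Cadm1* were the higher genes of 7 tested and *Sdc3* (−0.80) the lower one. None of the lists holds any of the 18 genes excluded by name, of which edgeR called 16 higher, *Mcam* (1.01), a cell adhesion molecule, among them, and none lower, so each count of a list is without them.

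Membership was fluid near the limit of 1.3. Just inside it lay *Tead1* (ratio 1.302), *Avpr1a* (1.303) and *Sulf1* (1.308), and just outside it *Bmp2* (1.27), *Pkia* (1.26) and *Arhgef17* (1.25), whose P6 values likewise all exceeded their P56 values. *Setbp1* reached a ratio of 1.31 with overlapping ages. The lowest P6 library was at least 2 times the highest P56 library in 14 members, *Pak3* (4.50) and *Aspm* (4.23) above all, and less than 1.1 times in 6, namely *Gprin3*, *Dot1l*, *Tead1*, *Pde3a*, *Slc6a6* and *Sulf1*. Without P56 replicate 3 the median ratio of the 56 genes was 1.63 in place of 1.75. The ratio then fell under 1.3 in 8 genes, *Ccnd1*, *Dot1l*, *Slc6a6*, *Tead1*, *Tnc*, *Sulf1*, *Avpr1a* and *2310022B05Rik*.

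Within an age the P56 libraries were the more scattered. The median CV of the 56 genes was 7.71% at P6 and 13.2% at P56, close to the 7.06% and 13.5% of the listed genes, although genes whose ages do not overlap are favoured when their spread is small. A larger CV at P56 than at P6 was found for 43 of the 56 genes, as for 242 of the 310. P56 replicate 3 was the lowest of its age for 45 of the 56 genes, as for 257 of the 310. At P6, replicate 3 was most often the lowest library, in 46 of the 56 genes and in 200 of the 310, and the highest in none of the 56 and in 43 of the 310. A CV over 20% was seen in 4 genes at P6, *Rspo3*, *Gprin3*, *Pak3* and *Gm40814*, and in 5 at P56, *Rspo3*, *Slc8a1*, *Gm40814* and *Brca2* among them.

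The size of the difference depended on the unit for a few members. The ratio of the counts at equal depth exceeded the ratio of the mean TPM by a median of 0.116 on the log2 scale over the 310 genes, a shift common to the list. Of 7 listed genes that lay more than 0.2 from that shift, 5 were members. The ratio of *Aspm* was 4.85 by TPM and 6.43 by counts (95% exact interval 5.34 to 7.80, counting error only), that of *Anln* 3.03 and 3.86, that of *Slc8a1* 1.81 and 2.34, and that of *Gprin3* 1.48 and 1.92. *Inhba* went the other way, with 4.10 by TPM and 3.32 by counts (interval 2.40 to 4.68). That interval held its TPM ratio after the common shift, unlike those of *Aspm*, *Anln*, *Slc8a1* and *Gprin3*. All 5 genes were higher at P6 in either unit, and all 56 members had every P6 count above every P56 count. The choice of genes and the greater depth of every P6 library largely fixed both, so nothing is read from them.

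**Figure D3:**
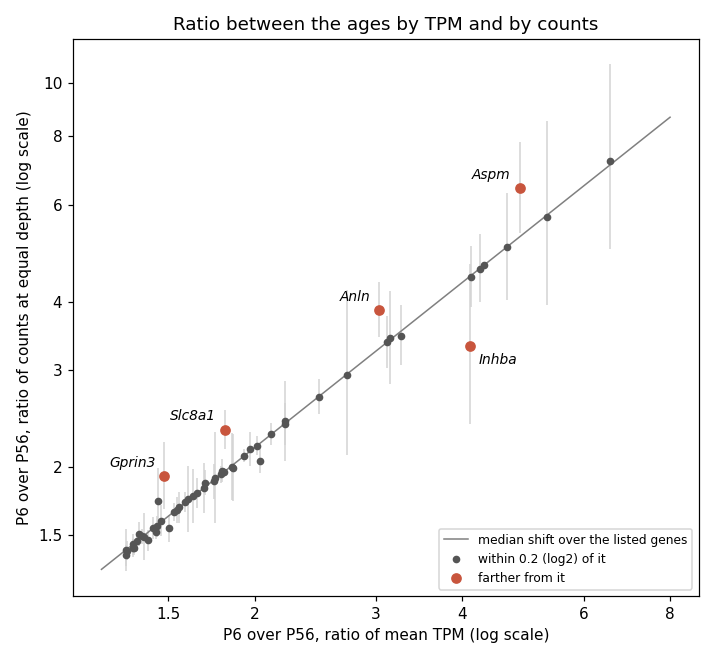
Ratio of P6 to P56 for the 56 genes by mean TPM (horizontal axis) and by summed counts at equal depth (vertical axis), both on log axes. The line marks the median shift of 0.116 (log2) over the listed genes, vertical bars are 95% exact counting intervals, and the 5 labelled genes lie more than 0.2 from the line.

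Count and FPKM of the same gene also gave the transcript length that the authors' quantification had used in each library, since the depth was known. For *Thbs1* and *Pole* this length was the same in all 6 libraries within 1%. Relative to its mean over the libraries, it was 1.08, 1.097 and 1.12 for *Aspm* at P6 and 1.04, 0.802 and 0.866 at P56. For *Anln* it was 1.093, 1.095 and 1.052 at P6 and 0.891, 0.931 and 0.939 at P56. In these 2 genes every P6 library had a longer implied transcript than every P56 library. The same held by a smaller margin for *Lef1*, which was picked by name, with 1.096, 1.028 and 1.026 at P6 and 0.975, 0.941 and 0.933 at P56. It held even for *Thbs1*, whose ages differed by a factor of 1.001, so separation alone says little with 3 libraries per age. How often it occurred over the 295 genes with an implied length was not counted. Of these, 5 differed between the ages by more than 0.2 on the log2 scale, and 4 of the 5 were members. The other members ran from 0.934 to 1.137 as P6 over P56. For *Inhba* the P6 values of 0.892, 0.919 and 0.732 lay mostly below the P56 values of 1.41, 1.19 and 0.861. Its P56 libraries held only 18, 17 and 11 counts. In *Gprin3* (0.876, 1.22 and 1.22 against 0.945, 0.771 and 0.961) and *Slc8a1* (1.08, 1.06 and 1.05 against 0.799, 0.825 and 1.19) the ages overlapped. In RSEM the length of a gene is the mean over its transcripts, weighted by their estimated abundance, so it can differ between libraries, and which transcripts were counted here was not tested.

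**Figure D4:**
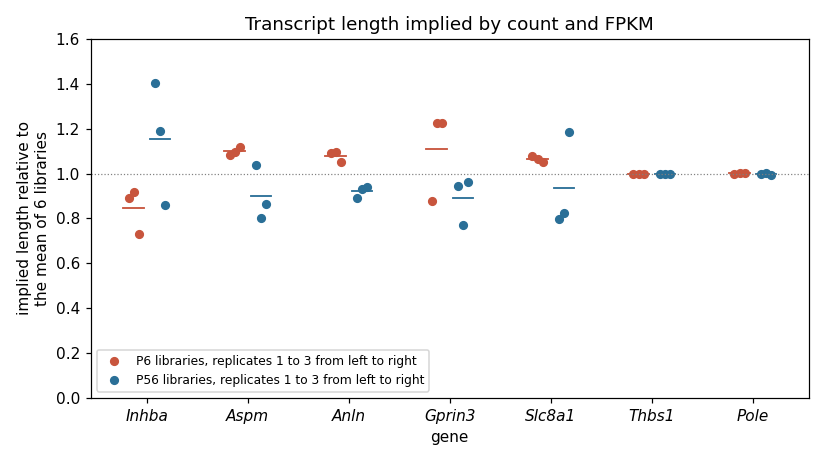
Transcript length implied by count, FPKM and depth for the 5 members whose ratio depended on the unit and for *Thbs1* and *Pole*, each relative to its mean over the 6 libraries. Points are libraries, replicates 1 to 3 from left to right, and short bars are the means of an age; *Aspm* and *Anln* have longer implied transcripts in all P6 libraries, and *Thbs1* and *Pole* lie at 1 throughout.

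The members had long transcripts, as the whole list had. The longest coding transcript in the annotation had a median of 5860 bases over 55 members and 6404 bases over 309 listed genes, against 2680 bases over 21901 coding genes. Members ranged from *Gadd45b*, with 1284 bases, to *Slc8a1*, with 18464 bases. In this respect the 56 genes resembled the table that they came from.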

How the data were processed

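RNA of 6 mouse libraries, 3 at P6 and 3 at P56, was sequenced on a BGISEQ-500 according to the paper, after poly(A) capture. The submitters' processing notes name HISAT, Bowtie2, RSEM and DESeq2; no source used here gives versions or the genome build. For each gene and library the authors deposited estimated counts, not normalized, which are fractional where RSEM divided reads. The authors also deposited TPM, scaled by length to a common total, and FPKM, scaled by length and library total, over all genes of a library. The last columns hold the authors' own log2 ratio, p-value and q-value of P6 against P56 and were not used.

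Libraries were grouped by the labels. The 56 genes and all gene and marker lists were chosen with earlier results of these data known. Picked for description with the value of each library were the 15 members with the largest ratio, the 10 most abundant at P6 and every member of a gene list, 37 in all; other members are named with their mean, and 2 of the 56 are not reported here. After rounding, the quasi-likelihood test of edgeR 4.0.16 (R 4.3.3) was run on the 310 genes that averaged at least 10 counts, with Benjamini-Hochberg adjustment and a threshold of 0.05. Library sizes were the depth recovered as the median ratio of count to FPKM over 196 genes with FPKM over 5, without TMM or covariates. The fit was tested on simulated data of P6 against P56 with 310 genes, and recovered 100% of 200 genes changed by a log2 of 1 and called 3 of 110 unchanged genes. The simulation used a common dispersion for all genes and the recovered depths. Smaller changes and a deviating library such as P56 replicate 3 were therefore not covered. The replicate numbers were not taken as pairs, since deviations of same-numbered libraries correlated at 0.09, 0.15 and 0.26. Libraries of an age differed by more than sampling noise (mean chi-square per gene 8.61 to 44.6). Alternatives were equal library sizes, median-of-ratios factors, column totals with TMM, DESeq2 1.42.0, limma 3.58.1 on log2(TPM + 1) and log2(TPM + 0.1), other filters, a replicate block, each library left out, and other settings of the choice of genes. Transcript lengths came from GENCODE vM21. Depth sets the precision: members with under 60 counts on average (*Pak3*, *Gcnt4*, *Rspo3*, *Inhba*) have wide counting intervals.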

Additional observations from a re-analysis of the deposited data

How the results depend on the processing

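All 37 genes picked for description with each library's value stayed higher at P6, with an adjusted p under 0.05, in each of the 548 values that 15 alternatives gave; their choice, with every P6 value above every P56 value, largely fixed this, so it is no sign of stability. Equal library sizes gave 148 genes higher and 34 lower, which follows from leaving the depth of the libraries uncorrected, and a median log2 fold change of the 56 genes of 1.31. That median was 0.70 with limma on log2(TPM + 1) and 0.77 on log2(TPM + 0.1), 0.94 with the replicate block, and between 0.88 (without P56 replicate 3) and 1.004 (without P56 replicate 1) with each library left out. A minimum size of 1 for the log2 fold change left 50 calls, 32 higher and 18 lower. With each library left out, 172 to 221 genes were called, and the replicate block gave 213, 104 higher and 109 lower; it changed no member's call. Between 53 and 56 members were called over the alternatives, the fewest at a mean of at least 50 counts, which removed *Inhba*, *Gcnt4* and *Rspo3*; limma's filter at a mean of 1 TPM removed *Pak3* and *Gcnt4*.

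The number of genes chosen moved from 56 to 19 at a ratio of at least 2, to 127 with counts as deposited, to 67 with FPKM and to 68 with counts at the recovered depth, and lay between 48 and 62 with each library left out (48 without P56 replicate 3). Depth limits the scarce genes most. The selection of the listed genes leaves no neutral background, and with 3 libraries per age the spread of a gene is itself poorly known.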
